A study of Homo sapiens with 8 samples.

Results

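Transcripts of 10 genes of the DNA replication checkpoint were followed in JVM13 cells, an established human B-cell line from a prolymphocytic leukaemia. The genes were ATM, ATR, ATRIP, CHEK1, CHEK2, CLSPN, TOPBP1, TIMELESS, TIPIN and WEE1. They were taken by name, with earlier results of these data known, and all 10 were measured among 18231 genes on an Affymetrix array. Each gene was represented by the probe set annotated to it alone that had the highest mean over the 8 arrays, and the other 15 of their 25 probe sets served as a check. The cells carried a doxycycline-inducible vector that held T286A cyclin D1 (n = 3), wild-type cyclin D1 (n = 3) or no insert (empty vector, titled control, n = 2). All 3 groups received 0.1 µg/mL doxycycline, so the empty vector cells control for the drug. The T286A substitution makes cyclin D1 highly stable. The number of separately derived cell populations per construct, the length of induction and whether replicates were separate cultures are not given in the sources used here. The p-values therefore reflect sample-to-sample spread that may be only technical.

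The checkpoint slows the cell cycle when DNA replication stalls or DNA breaks. ATR, a kinase held by its partner ATRIP on exposed single-stranded DNA, is switched on by TOPBP1 and phosphorylates the kinase CHK1, the product of CHEK1. Claspin, encoded by CLSPN, and the TIMELESS and TIPIN pair travel with the replication fork and help ATR reach CHK1. ATM answers mainly to double-strand breaks and acts through CHK2, the product of CHEK2. CHK1 and CHK2 restrain CDC25 phosphatases, and WEE1 places the inhibitory phosphate that CDC25 removes from CDK1. Cyclin D1, with CDK4 or CDK6, drives entry into S phase by releasing E2F transcription factors, and its overexpression defines mantle cell lymphoma, a B-cell cancer in which ATM is often lost.

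Start-site sequences are shown because 6 of the 10 genes were higher in every cyclin D1 array than in both empty vector arrays, as were 6.68% of all genes. Of these 6, CHEK2 alone passed the adjusted test. A further reason is that cyclin D1 acts on transcription through E2F. Windows of 250 bases before to 50 bases after an annotated start site (RefSeq, GRCh38.p14) were found for 9 of the 10 genes, 14 windows in all; WEE1 had no window and was not searched. Each was searched on both strands for the E2F words TTTCCCGC, TTTGGCGC, TTTCGCGC and TTTGCCGC. A word was present in 3 of the 14 windows, belonging to CLSPN, TOPBP1 and TIPIN, against 3.31% of 35116 windows of all genes. By gene this was 3 of the 9 searched, against 3.99% of 27305 genes. Those are all genes with a window, not the 18231 measured, and they were not matched for GC content. Some windows of 1 gene overlap, as for CHEK1 and ATM. Whether E2F words are more frequent in the 10 genes was not tested. In the TIPIN window 2 words overlap, one on each strand. Another word searched, TTTGAA, which is part of the cell-cycle element bound by MuvB complexes, was present in 1 of the 14 windows, that of ATM, against 15.2% of all windows. Neither an E2F word nor TTTGAA was present in the windows of CHEK1, CHEK2 and TIMELESS, which were among the 6 higher genes. CHEK2 gave the smallest p of the 10 genes for both constructs together. CLSPN, which holds an E2F word, was not among the 6. Capitals mark the E2F words, and each sequence reads 5′ to 3′ along the gene's strand.
CHEK2 at chr22:28741771-28742070, minus strand: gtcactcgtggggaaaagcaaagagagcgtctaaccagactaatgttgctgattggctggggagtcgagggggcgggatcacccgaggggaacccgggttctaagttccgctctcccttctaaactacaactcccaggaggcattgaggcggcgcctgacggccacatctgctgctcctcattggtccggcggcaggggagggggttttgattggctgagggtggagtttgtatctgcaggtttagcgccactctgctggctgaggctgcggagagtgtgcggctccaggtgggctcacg
TOPBP1 at chr3:133661892-133662191, minus strand: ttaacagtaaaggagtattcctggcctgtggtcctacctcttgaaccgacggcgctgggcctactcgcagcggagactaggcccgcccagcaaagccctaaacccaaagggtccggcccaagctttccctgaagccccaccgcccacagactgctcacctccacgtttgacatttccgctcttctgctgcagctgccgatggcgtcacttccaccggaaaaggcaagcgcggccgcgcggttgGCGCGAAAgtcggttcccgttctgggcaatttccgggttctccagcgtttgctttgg
TIPIN (the window that holds the words) at chr15:66356636-66356935, minus strand: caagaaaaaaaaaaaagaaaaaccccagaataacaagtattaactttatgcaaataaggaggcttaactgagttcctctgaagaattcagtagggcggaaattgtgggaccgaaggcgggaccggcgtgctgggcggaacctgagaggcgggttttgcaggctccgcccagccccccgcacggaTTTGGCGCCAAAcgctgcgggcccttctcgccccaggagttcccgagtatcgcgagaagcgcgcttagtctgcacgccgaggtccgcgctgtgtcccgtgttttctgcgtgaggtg
CLSPN at chr1:35769929-35770228, minus strand: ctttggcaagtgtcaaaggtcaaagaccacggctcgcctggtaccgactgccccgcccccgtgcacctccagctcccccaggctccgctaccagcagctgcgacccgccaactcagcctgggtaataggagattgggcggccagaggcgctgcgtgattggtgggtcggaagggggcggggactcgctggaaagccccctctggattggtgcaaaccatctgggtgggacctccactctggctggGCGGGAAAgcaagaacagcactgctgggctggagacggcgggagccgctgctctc
The words in CLSPN and TOPBP1 lie at the start site, from 5 and 7 bases before it. A match describes these letters and is neither a binding site nor a cause of a difference.

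The values are log2 expression values from robust multi-array averaging (RMA), which gives the arrays nearly equal distributions, so each difference is relative to the other genes. Array medians lay between 5.47 and 5.62. Wild-type replicate 2 stood apart: limma gave it an array weight of 0.513, against 0.85 to 1.44 for the other 7 arrays, and values without it are given below for CHEK2, CLSPN and TIMELESS. CCND1, the induced gene, had 11.25, 10.86 and 10.95 in T286A arrays and 10.98, 11.13 and 11.07 in wild-type arrays, against 5.25 and 4.98 in empty vector arrays. Every cyclin D1 array lay far above both empty vector arrays, and the mean difference was 5.92 ± 0.12 (SE; limma adjusted p = 2.14e-07). T286A minus wild type was -0.04 for CCND1 (95% interval -0.31 to 0.22, limma adjusted p = 0.902). All 7 measured B-cell markers, among them CD79A, PAX5 and MS4A1, lay above the median of all genes (5.94), and all 7 T and NK cell markers lay below it, between 3.99 and 5.90. Of 5 myeloid markers 1, ITGAM, was above it. The B-cell surface receptor CD22 fell by 0.40 with wild type (limma adjusted p = 0.0498), and no other marker was called in any comparison; the part of this in the results below was not tested.

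Taking both constructs together against empty vector, CHEK2 rose and the other 9 genes did not pass the test, although 6 genes separated the groups completely. CHEK2, CHEK1, WEE1, TOPBP1, TIMELESS and TIPIN were higher in each of the 6 cyclin D1 arrays than in either empty vector array, by 0.25 to 0.41 on the log2 scale, or 1.19-fold to 1.33-fold. Such complete separation upward was found for 6.68% of all genes and separation downward for 6.88%. Those 6 genes also had an unadjusted p under 0.05 with a higher mean, as did 5.72% of all genes. With p-values adjusted across the array (Benjamini-Hochberg, threshold 0.05), 1 of the 10 was called, CHEK2, against 1.4% of all genes, 0.702% higher and 0.697% lower. The median difference over the 10 genes was 0.28, against -0.00015 over all genes. In bulk samples, more cells with a transcript and more of it per cell cannot be told apart. ATR, ATRIP and CLSPN overlapped between the groups, and ATM was lower in every cyclin D1 array without passing the test.

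**Figure D1:**
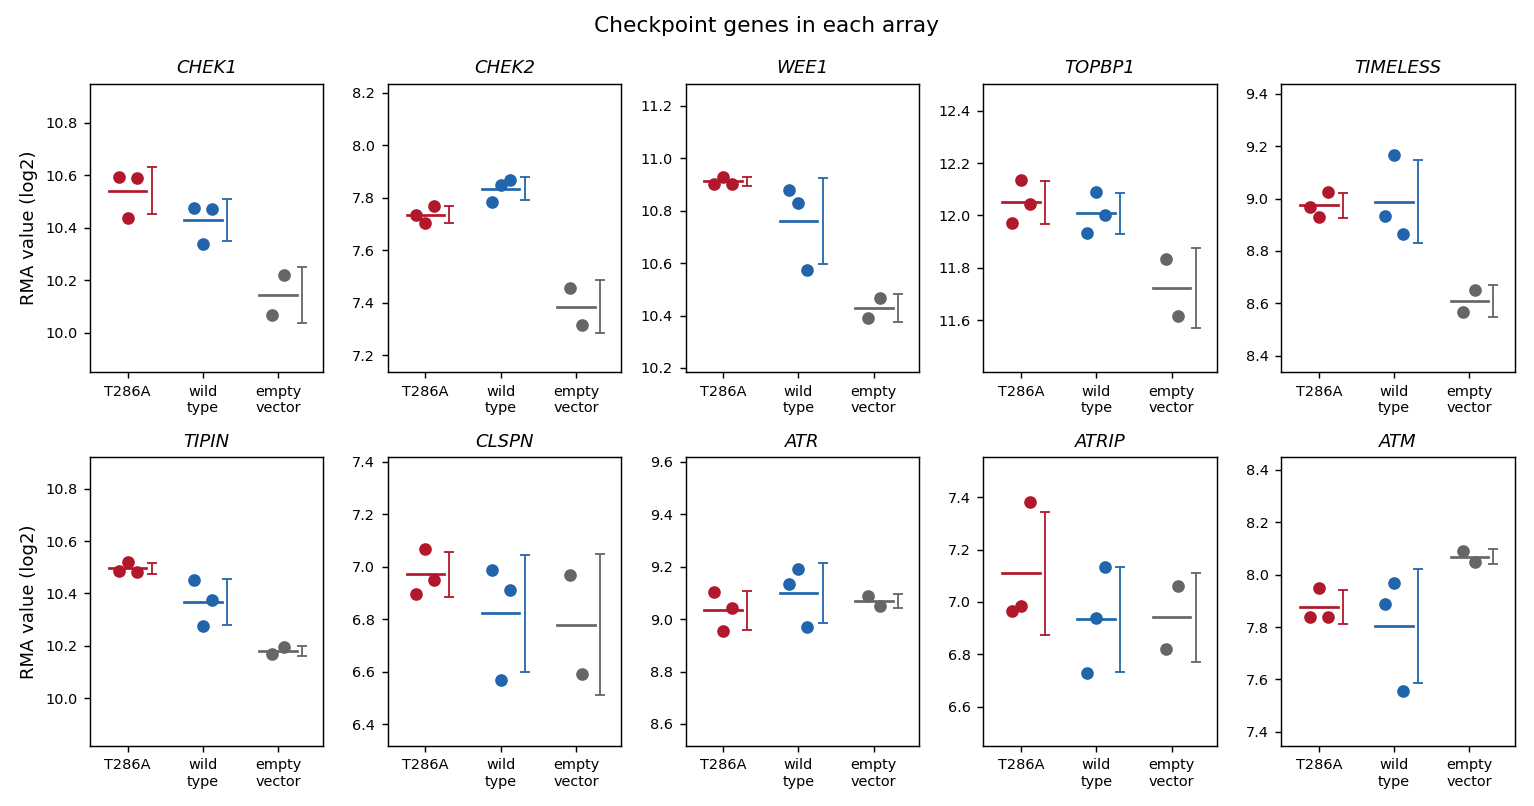
RMA values (log2, y axis) of the 10 checkpoint genes in each array, by group on the x axis; points are arrays, lines are group means and bars beside them are the SD (n = 3, 3 and 2), and every panel spans the same log2 range. For CHEK1, CHEK2, WEE1, TOPBP1, TIMELESS and TIPIN all 6 cyclin D1 arrays lie above both empty vector arrays, for ATM they lie below, and for CLSPN, ATR and ATRIP the groups overlap.

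CHEK2 encodes CHK2, the effector kinase of the ATM branch. Its probe set had 7.74, 7.70 and 7.77 in T286A arrays and 7.78, 7.85 and 7.87 in wild-type arrays, against 7.46 and 7.31 in empty vector arrays. With this probe set the 3 groups did not overlap, and wild type was highest. CHEK2 rose by 0.40 ± 0.064 with both constructs (SE; 1.32-fold, 6 against 2 arrays, limma adjusted p = 0.0284) and by 0.45 ± 0.071 with wild type (1.37-fold, 3 against 2 arrays, limma adjusted p = 0.023). With T286A its difference was 0.35 ± 0.071, with a limma adjusted p of 0.0814, so it was not called there. T286A minus wild type was -0.10 (95% interval -0.25 to 0.05, limma adjusted p = 0.537), so the constructs are not shown to differ. The call for both constructs stood without wild-type replicate 2 (limma adjusted p = 0.049) and was lost on leaving out any other single array, with adjusted p from 0.0547 to 0.299. The wild-type call stood without T286A replicate 2 (limma adjusted p = 0.0476) and was lost on leaving out any other, at 0.056 without wild-type replicate 2 and up to 0.202. The 3 CHEK2 probe sets disagreed: the next was higher by 0.22 (unadjusted p = 0.028) and separated the groups, while the dimmest, with a mean level of 5.23, was at -0.08. Averaged over its probe sets CHEK2 was higher by 0.18 (limma adjusted p = 0.211). CHEK2 has partial copies elsewhere in the genome, and the name of its brightest probe set carries the suffix that Affymetrix gives to sets that may match other sequences; a part of such copies in the signal was not tested.

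CHEK1 encodes CHK1, the effector kinase of the ATR branch. It had 10.60, 10.44 and 10.59 in T286A arrays and 10.48, 10.34 and 10.47 in wild-type arrays, against 10.07 and 10.22 in empty vector arrays. Both constructs lay above empty vector, with T286A and wild-type arrays overlapping each other. CHEK1 differed by 0.34 ± 0.077 for both constructs (SE; 1.27-fold, limma adjusted p = 0.0853). All 6 CHEK1 probe sets separated the 6 cyclin D1 arrays from the empty vector arrays, as did 6.21% of all probe sets in that direction, and their differences lay close together, between 0.31 and 0.38. Averaged over the 6 probe sets, CHEK1 was higher by 0.34 and passed the test (limma adjusted p = 0.0136). The brightest probe set alone also passed when only genes at or above the median level were fitted (limma adjusted p = 0.0268). So it did with an intensity trend and robust variance prior (0.00329) and with array weights (0.0429). The call thus depended on the analysis and not only on how probe sets are combined.

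WEE1, the kinase that holds CDK1 inactive, had 10.90, 10.93 and 10.90 in T286A arrays and 10.88, 10.83 and 10.57 in wild-type arrays, against 10.39 and 10.47 in empty vector arrays. Its T286A arrays, with an SD of 0.016, all lay above the wild-type arrays, as for 9.94% of all genes. With both constructs WEE1 differed by 0.41 ± 0.086 (1.33-fold, limma adjusted p = 0.0689), the largest mean difference among the 10 genes. WEE1 has 1 probe set on the array. Its means ran in the order T286A, wild type, empty vector. The neighbours T286A and wild type differed by 0.15 (95% interval -0.05 to 0.35, limma adjusted p = 0.486). Wild-type replicate 3 was well below the other 2: without it that difference was 0.06, and WEE1 was called for both constructs (0.45, limma adjusted p = 0.0329) and for wild type (0.43, limma adjusted p = 0.0472).

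TOPBP1, the activator of ATR, had 11.97, 12.14 and 12.04 in T286A arrays and 11.93, 12.09 and 12.001 in wild-type arrays, against 11.83 and 11.62 in empty vector arrays. The constructs overlapped each other and lay above empty vector, by 0.31 ± 0.082 (1.24-fold, limma adjusted p = 0.142). The size depended on the empty vector arrays, at 0.20 without replicate 2 and 0.41 without replicate 1. Its other probe set was higher by 0.36 and also separated the groups. TIMELESS, which stabilises stalled forks, had 8.97, 8.93 and 9.02 in T286A arrays and 8.93, 9.17 and 8.86 in wild-type arrays, against 8.57 and 8.65 in empty vector arrays. The highest array was wild-type replicate 2, without which the difference was 0.33 for both constructs (limma adjusted p = 0.0671) and 0.29 for wild type. With all arrays the difference for both constructs was 0.37 ± 0.086 (1.29-fold, limma adjusted p = 0.0919), and the second probe set, with a mean level of 4.82, was higher by 0.14. TIPIN, the partner of TIMELESS, had 10.48, 10.52 and 10.48 in T286A arrays and 10.45, 10.28 and 10.37 in wild-type arrays, against 10.17 and 10.20 in empty vector arrays. All T286A arrays lay above all wild-type arrays, and these above empty vector. T286A minus wild type was 0.13 for TIPIN (limma adjusted p = 0.428), so the constructs are not shown to differ. The difference for both constructs was 0.25 ± 0.064 (1.19-fold, limma adjusted p = 0.124). The other TIPIN probe sets were at 0.23 and 0.08 for both constructs and at 0.09 and 0.01 with wild type. In both comparisons they overlapped empty vector.

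CLSPN, whose product claspin bridges ATR and CHK1, had 6.90, 7.07 and 6.95 in T286A arrays and 6.99, 6.57 and 6.91 in wild-type arrays, against 6.97 and 6.59 in empty vector arrays. Wild-type replicate 2 was the lowest array and empty vector replicate 2 the next, and the groups overlapped. Without empty vector replicate 2 the difference for both constructs changed sign, to -0.07, and without wild-type replicate 2 it was 0.18 (0.17 for wild type, against 0.04 with all arrays). With all arrays CLSPN differed by 0.12 ± 0.13 (95% interval -0.19 to 0.42, limma adjusted p = 0.805), so a rise as large as that of CHEK2 lay within the interval. CLSPN has 1 probe set.

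ATR, the apical kinase of the fork branch, had 9.10, 8.95 and 9.04 in T286A arrays and 9.13, 9.19 and 8.97 in wild-type arrays, against 9.09 and 9.05 in empty vector arrays. The empty vector values fell inside the range of the cyclin D1 arrays. For both constructs ATR differed by -0.0036 ± 0.077 (95% interval -0.18 to 0.17, limma adjusted p = 0.994), an interval that ends below the differences of CHEK1, CHEK2, WEE1, TOPBP1, TIMELESS and TIPIN; the difference between genes was not tested. ATRIP, the ATR partner, had 6.96, 6.98 and 7.38 in T286A arrays and 6.73, 6.94 and 7.13 in wild-type arrays, against 6.82 and 7.06 in empty vector arrays. Replicates of 1 group spread as widely as the groups, and the difference was 0.08 ± 0.14 (95% interval -0.25 to 0.41, limma adjusted p = 0.895). ATR and ATRIP have 1 probe set each.

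ATM, the apical kinase of the break branch, had 7.84, 7.95 and 7.84 in T286A arrays and 7.89, 7.97 and 7.56 in wild-type arrays, against 8.09 and 8.05 in empty vector arrays. Every cyclin D1 array was below both empty vector arrays, and wild-type replicate 3 was the lowest. The difference for both constructs was -0.23 ± 0.11 (95% interval -0.47 to 0.01, limma adjusted p = 0.431). The other 4 ATM probe sets overlapped between the groups, and their differences ran from -0.14 to 0.14. The separation downward was thus seen with 1 of the 5 ATM probe sets.

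**Figure D2:**
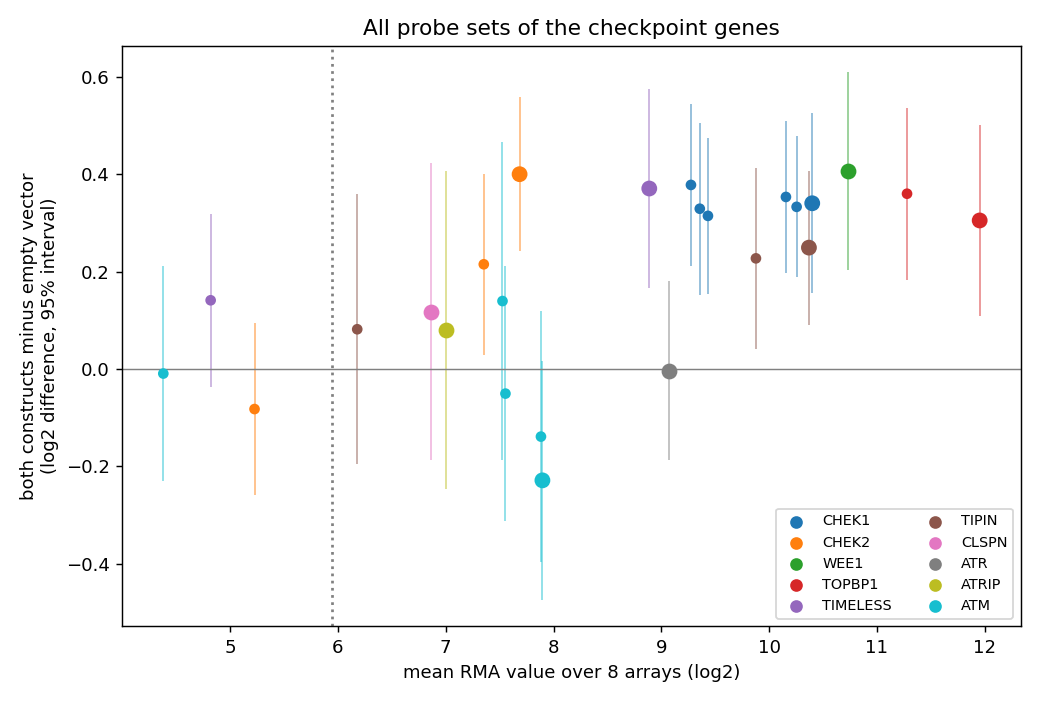
Difference between both constructs and empty vector (log2, 95% interval, y axis) against the mean RMA value over the 8 arrays (log2, x axis) for the 25 probe sets of the 10 genes; large points are the probe sets used and the dotted line is the median of all genes, 5.94. The 6 CHEK1 probe sets lie together between 0.31 and 0.38, the 5 ATM probe sets lie on both sides of 0, and the CHEK2, TIMELESS and TIPIN probe sets with the lowest levels lie nearer to 0 than their brighter ones.

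Of the 15 probe sets not used, 3 had means below the median of all genes. Over those 15, 13 had the same sign as the probe set used, and with p adjusted over all probe sets limma called 0 of them for both constructs, against 0.513% of 45220 probe sets. At an unadjusted p under 0.05, which 5.05% of all probe sets passed with a higher mean, all 6 CHEK1 and both TOPBP1 probe sets were higher, as were 2 of 3 for CHEK2, 2 of 3 for TIPIN and 1 of 2 for TIMELESS.

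Each construct was also set against empty vector alone; both comparisons share the 2 control arrays. With T286A, limma called 0 of the 10 genes, against 0.532% of all genes (0.34% higher, 0.192% lower), and 6 had an unadjusted p under 0.05 with a higher mean, as did 5.95% of all genes; 12.1% of all genes had such a p in either direction. Arrays of those 6 genes lay wholly above empty vector and those of ATM wholly below, against 15.2% and 16.7% of all genes, 31.9% in all. For ATM another probe set went the other way, at 0.28 with all T286A arrays above empty vector (unadjusted p = 0.119). The T286A differences were 0.48 for WEE1, 0.40 for CHEK1, 0.36 for TIMELESS, 0.35 for CHEK2, 0.33 for TOPBP1 and 0.31 for TIPIN, with limma adjusted p from 0.077 to 0.178. With wild type, 1 of the 10, CHEK2, was called, against 1.74% of all genes (0.603% higher, 1.14% lower), and 6 had an unadjusted p under 0.05 with a higher mean: CHEK2, TIMELESS, WEE1, CHEK1, TOPBP1 and TIPIN. The share of all genes was 6.08%. Complete separation upward was again found for 6 of the 10 and downward for ATM, against 15.2% and 15.3% of all genes, 30.5% in all. The wild-type differences were 0.38 for TIMELESS, 0.33 for WEE1, 0.28 for both CHEK1 and TOPBP1 and 0.19 for TIPIN, with limma adjusted p from 0.115 to 0.305. The median over the 10 genes was 0.32 with T286A and 0.23 with wild type, against -0.0030 and 0.0016 over all genes.

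**Figure D3:**
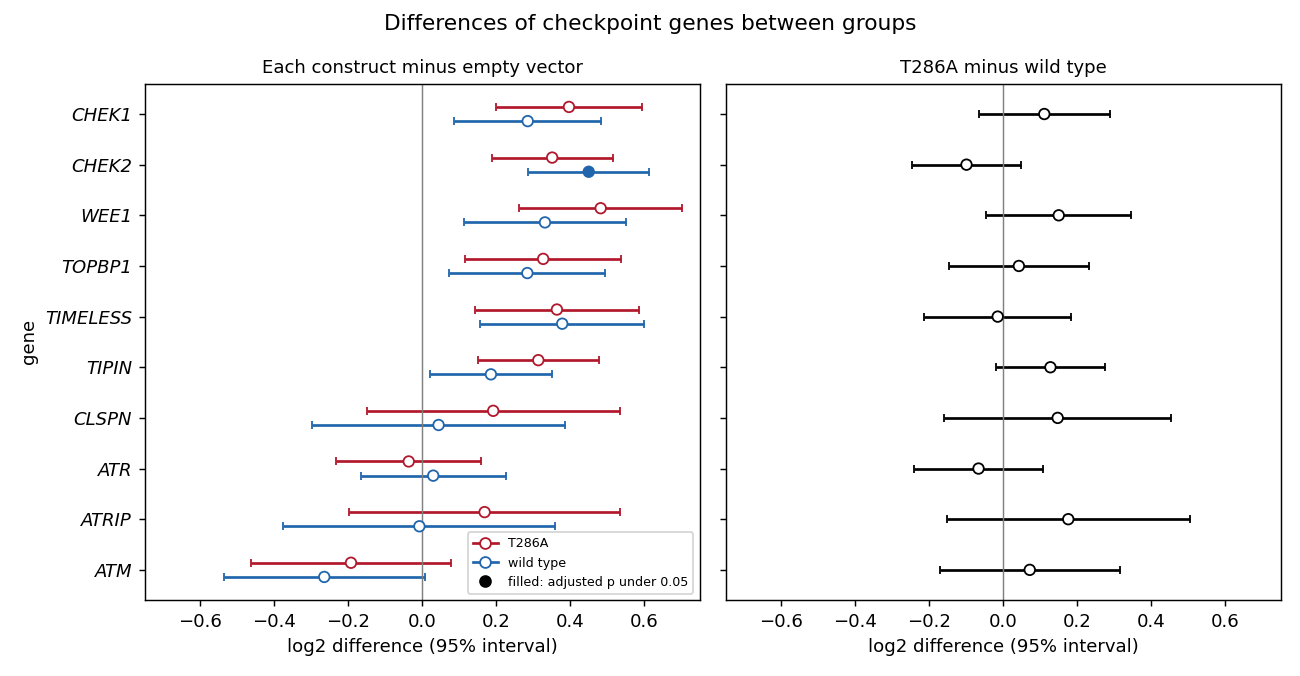
Log2 differences with 95% intervals (x axis) of the 10 genes (y axis), each construct minus empty vector on the left and T286A minus wild type on the right; filled points passed an adjusted p under 0.05. CHEK2 with wild type, at 0.45, is the only filled point, the intervals of CHEK1, CHEK2, WEE1, TOPBP1, TIMELESS and TIPIN lie above 0 for each construct on the left, and every interval on the right includes 0.

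The direct comparison asks whether the stable form of cyclin D1 acted differently from the wild-type form at a like CCND1 transcript level. In T286A against wild type, 3 arrays against 3, limma called 0 of the 10 genes, against 0.987% of all genes (0.598% higher, 0.389% lower), and 0 had an unadjusted p under 0.05, against 13.6% of all genes, 7.16% with a higher mean. TIPIN and WEE1 were higher in all T286A arrays and CHEK2 was lower, without passing the test. The other CHEK2 probe sets overlapped between T286A and wild type, at 0.06 and -0.03. Complete separation upward was found for 9.94% of all genes and downward for 9.82%, 19.8% in all. The widest intervals were those of ATRIP (-0.15 to 0.50) and CLSPN (-0.16 to 0.45), and the narrowest that of CHEK2. For CHEK1 the difference was 0.11 (95% interval -0.07 to 0.29) and for TIPIN 0.13 (95% interval -0.02 to 0.27). The other differences were 0.18 for ATRIP, 0.15 for both WEE1 and CLSPN, 0.07 for ATM, 0.04 for TOPBP1, -0.01 for TIMELESS, -0.07 for ATR and -0.10 for CHEK2. Leaving out 1 array kept CHEK2 between -0.12 and -0.08 and TIPIN between 0.08 and 0.17, but took CLSPN to 0.02 without wild-type replicate 2 and WEE1 to 0.06 without wild-type replicate 3. A second TIPIN probe set was higher in T286A cells by 0.27 (unadjusted p = 0.00904, adjusted p = 0.259 over all probe sets by limma). The 6 CHEK1 probe sets differed by 0.08 to 0.19, and 2 of them had all T286A arrays above wild type. Their lowest limma adjusted p over all probe sets was 0.376. For TOPBP1, TIMELESS and ATR the intervals ended at 0.23, 0.18 and 0.11, below the difference between both constructs and empty vector for TOPBP1 and TIMELESS.

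Around the 10 genes, 6 lists of other pathway genes were read in the same fit, with 70 of 73 entries measured. The lists were chosen with earlier results of these data known. Shares of all genes set beside their counts are therefore no test of the lists. Without either one of the empty vector arrays limma called 3 of all genes for both constructs, against 255 with both, and the calls in these lists are given with both arrays. Among 14 genes that sense single-stranded DNA, form the checkpoint clamp or load it, 2 were called higher for both constructs (0.702% of all genes) and 0 lower, and the median was 0.21. The clamp-loader subunit RFC3 rose by 0.43 ± 0.061 (limma adjusted p = 0.0203). RFC3 had 11.05, 10.96 and 11.06 in T286A arrays and 10.90, 10.91 and 10.93 in wild-type arrays, against 10.50 and 10.58 in empty vector arrays, with no overlap between the 3 groups. For RFC3, T286A minus wild type was 0.11 (limma adjusted p = 0.473), so the constructs are not shown to differ. All T286A arrays lay above wild type for 9.94% of all genes. RFC4, which is shared by the replication and checkpoint loaders, rose by 0.32 ± 0.056 (limma adjusted p = 0.0368).

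Of 11 fork partners measured, 3 were called higher (0.702% of all genes) and 0 lower, with a median of 0.31. MCM10, which helps to activate the replicative helicase, rose by 0.53 ± 0.067 (limma adjusted p = 0.0144), and its values were 9.25, 9.20 and 9.15 in T286A arrays and 8.98, 9.03 and 9.02 in wild-type arrays, against 8.66 and 8.49 in empty vector arrays. All T286A arrays lay above all wild-type arrays, without passing that test (0.19, limma adjusted p = 0.271). CDC45, a subunit of the helicase, rose by 0.50 ± 0.094 (limma adjusted p = 0.0477). WDHD1, which ties the helicase to DNA polymerase alpha, rose by 0.41 ± 0.069 (limma adjusted p = 0.0359). Among the genes not called, the kinase CDC7 was higher by 0.31 with a limma adjusted p of 0.0643.

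Among 10 cell-cycle genes that the checkpoint kinases act on, directly or through CDC25, 3 were called higher (0.702% of all genes) and 0 lower, with a median of 0.30. The phosphatase CDC25B rose by 0.42 ± 0.072 (limma adjusted p = 0.0355), CDC25A, the main CHK1 substrate in S phase, by 0.35 ± 0.065 (limma adjusted p = 0.0454) and the cyclin CCNA2 by 0.39 ± 0.068 (limma adjusted p = 0.0361). PKMYT1, a relative of WEE1 that also inhibits CDK1, was higher by 0.41 with a limma adjusted p of 0.0647. CCNE2, an E-type cyclin, was called with wild type (0.52, limma adjusted p = 0.0191) and CDC25A with T286A (0.46, limma adjusted p = 0.0453). The other E-type cyclin, CCNE1, was lower in every cyclin D1 array, at -0.20 for both constructs (unadjusted p = 0.0398, limma adjusted p = 0.361). In T286A against wild type, limma called 0 of the 10 (0.987% of all genes), with 6 at an unadjusted p under 0.05 (13.6% of all genes); CCNE2 was at -0.31 (limma adjusted p = 0.106) and CDC25A was higher by 0.21 (limma adjusted p = 0.217).

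The lists of the ATM branch, of recovery and of p53 targets and regulators held no call. For both constructs 1.4% of all genes were called, so 0 calls in lists of this size lie near that share. They do not show these genes to be unchanged. Of 11 genes of the double-strand break arm, limma called 0 for both constructs and 3 had an unadjusted p under 0.05 (12.5% of all genes), and the median was 0.08. H2AX, the histone that ATM phosphorylates at breaks, was higher by 0.31 (limma adjusted p = 0.0647) and BRCA1 by 0.30 (limma adjusted p = 0.252). TP53BP1, whose product gathers at breaks, had the largest difference of the list in size and was lower in every cyclin D1 array, at -0.37 (unadjusted p = 0.0311, limma adjusted p = 0.325). Of 13 recovery genes limma called 0, with 6 at an unadjusted p under 0.05 (12.5% of all genes) and a median of 0.06. PPM1D, a phosphatase that switches off ATM and CHK2 signalling, was higher by 0.30 (limma adjusted p = 0.108), and FBXO6, a ubiquitin-ligase subunit that targets CHK1, was at -0.43 (limma adjusted p = 0.142). FBXO6 had 7.70, 7.78 and 7.66 in T286A arrays and 7.21, 7.33 and 7.26 in wild-type arrays, against 7.68 and 8.16 in empty vector arrays, so wild type was lowest and T286A overlapped empty vector; T286A minus wild type was 0.45 (limma adjusted p = 0.153). Of 11 measured p53 targets and regulators limma called 0, with 3 at an unadjusted p under 0.05 (12.5% of all genes) and a median of 0.08. MDM2, which degrades p53, was higher by 0.33 (limma adjusted p = 0.0653), and CDKN1A, the p21 gene, by 0.19 (limma adjusted p = 0.174). In T286A against wild type limma called 0 genes of the sensing, fork, break, recovery and p53 lists, against 0.987% of all genes. Those with an unadjusted p under 0.05 numbered 0, 1, 0, 2 and 1, against 13.6% of all genes. The smallest p among p53 targets was that of GADD45A, 0.29 higher (limma adjusted p = 0.088), and among recovery genes beside FBXO6 that of the mitotic kinase AURKA, 0.21 higher (limma adjusted p = 0.159).

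**Figure D4:**
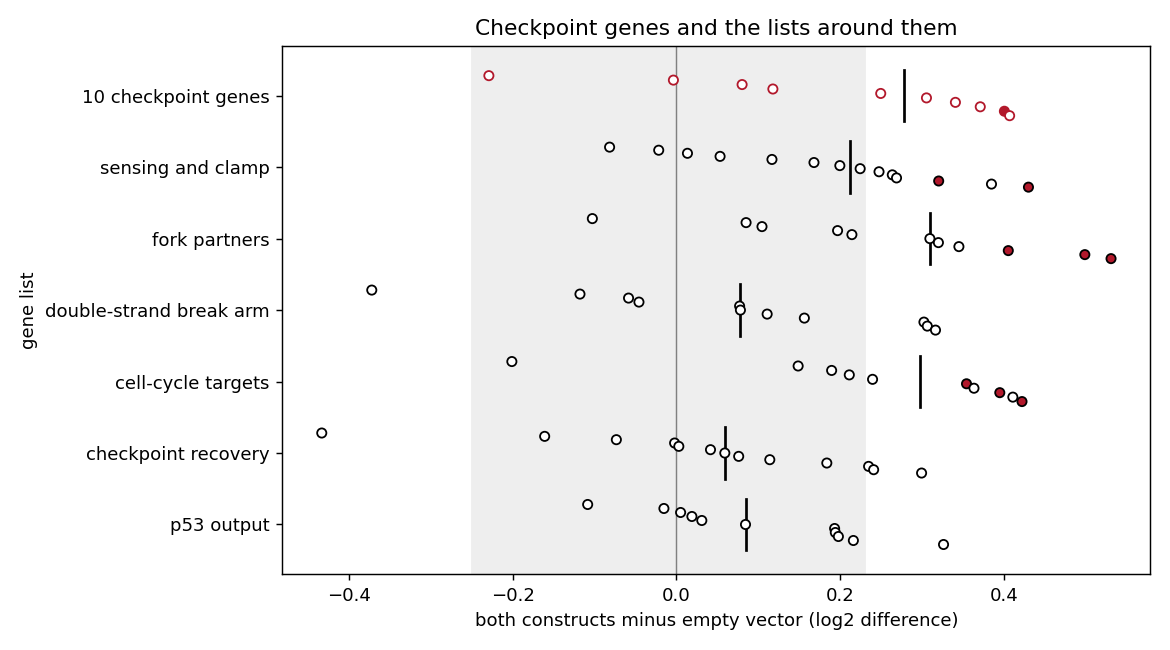
Log2 difference between both constructs and empty vector (x axis) for the 10 checkpoint genes and for each measured gene of 6 surrounding lists (y axis); filled points passed an adjusted p under 0.05, black lines are list medians and the grey band holds the 5th to 95th percentile of all genes. Called genes appear among the checkpoint genes, the sensing and clamp genes, the fork partners and the cell-cycle targets. Medians of these are 0.28, 0.21, 0.31 and 0.30, and those of the other 3 lists lie between 0.06 and 0.08. Over all genes 1.4% were called.

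The genes whose pattern over the 8 arrays was most like that of CHEK1 were ACTA2, LCMT2, KIF18A and PAQR4. After each gene was centred on its mean, they differed from CHEK1 by a root mean square of 0.044 to 0.050 (log2), against a median of 0.209 over all genes. For CLSPN the nearest were CELSR2, GPC6, GAB4 and RALGPS1, at 0.058 to 0.067, against a median of 0.208. Each set was picked as the nearest of all genes, so distances below the median follow from the choice and are no test of likeness.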

How the data were processed

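The authors deposited RMA log2 values, made with R 3.5.0 according to the submitters' processing notes. RMA corrects background, gives arrays like distributions and combines probes, so no detection call is left, and precision rests on how few arrays there are. Groups follow the sample titles. Of 48864 probe sets, 10 controls were dropped; 45220 had 1 gene, 1325 several and 2309 none, and the brightest stood for each of 18231 genes, without a level filter. A group-means model over all 8 arrays was fitted with limma 3.58.1 in R 4.3.3 (5 residual and 3.27 prior degrees of freedom, two-sided tests), and genes with a Benjamini-Hochberg adjusted p below 0.05 were called. The procedure was tested on simulated data with planted changes larger than any difference of the 10 genes, so recovery at their size was not tested. The members and lists were chosen with earlier results of these data known. Named by rule were the 10 members, CCND1, up to 4 called genes per list with the largest change (with none called, the 2 of smallest p) for both constructs and for T286A against wild type, and the 4 patterns nearest to CHEK1 and CLSPN. CDC7, PKMYT1, CCNE1, TP53BP1 and the markers CD79A, PAX5, MS4A1, ITGAM and CD22 were named outside that rule, after their values were seen. Alternatives were the mean of all probe sets, each probe set on its own, a filter at the median level, an intensity trend with a robust prior, housekeeping centring, array weights, the replicate block, only the groups compared, and each array left out.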

Additional observations from a re-analysis of the deposited data

How the results depend on the processing

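The number of the 10 genes called depended on the analysis, in both directions. The calls over all genes moved with it and stand in brackets. For both constructs it was 1 (255), and became 3 (353) with the mean of all probe sets (CHEK1, TIMELESS and WEE1), 5 (624) with genes at or above the median level, 6 (738) with the intensity trend and robust prior, 4 (436) with array weights, 0 with each probe set on its own (232 of 45220 probe sets) and 0 (7) with the replicate block; leaving out 1 array gave 0 to 1 (3 to 199, with 3 without either empty vector array). With wild type it was 1 (317), and became 2 (406) with the mean of all probe sets, 2 (629) with the filter at the median level, 5 (747) with the trend and robust prior, 0 (71) with the replicate block and 0 (68) with only the groups compared; leaving out 1 array gave 0 to 1 (22 to 196). With T286A it was 0 (97), and became 2 (190) with the mean of all probe sets, 4 (527) with the filter, 5 (626) with the trend and robust prior and 3 (317) with array weights; it stayed 0 on leaving out 1 array (1 to 87). In T286A against wild type it was 0 in every setting run (70 to 602, against 180). Each member called was higher. The filter tests fewer genes and a fit without an array uses fewer samples; other causes were not tested. Whether the replicate numbers pair the arrays could not be told. Deviations from group means correlated at -0.091 to 0.119 over 7 same-numbered pairs, and at -0.110 to 0.0962 over 14 others. Deviations within a group sum to 0, so each correlation with 1 empty vector array recurs with the opposite sign for the other.

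Of 630 differences of single genes under these settings, 554 kept their direction and side of the threshold, 38 newly passed it, 20 no longer did and 18, none of them called, changed sign. With the replicate block ATR was at 0.026 and ATRIP at -0.037 for both constructs, with the mean of all probe sets ATM was at 0.0053 with T286A, and with array weights TIMELESS was at 0.025 in T286A against wild type. With 1 array left out, values for both constructs ran from -0.027 to 0.029 for ATR, from -0.039 to 0.20 for ATRIP and from -0.072 to 0.31 for CLSPN. With wild type they ran from -0.017 to 0.094 for ATR, from -0.13 to 0.11 for ATRIP and from -0.15 to 0.23 for CLSPN, and with T286A from -0.071 to 0.0032 for ATR. In T286A against wild type they ran from -0.052 to 0.15 for ATM and from -0.077 to 0.075 for TIMELESS.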
